A study of Arabidopsis thaliana with 30 samples.

Results

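The 120 genes described here were those with the highest and most lasting excess of transcript in aerial organ explants over root explants of Arabidopsis thaliana during culture on callus-inducing medium. They were chosen on the array values themselves. For every probe set that the platform's annotation assigns to 1 gene, the difference between the aerial and the root group mean of log2(signal + 22) was taken at 0, 12, 24, 48 and 96 h, and the smallest of the 5 differences was the score. The 120 highest scores of 13463 eligible probe sets were kept, out of 22810 probe sets in the table. Control probe sets and genes with a symbol beginning LHCB, PSA, PSB, psa, psb, ndh, pet or atp were left out by the rule, in that case of letters, so that NdhS, ATPC1 and ATPMEPCRD were eligible. The differences between organs therefore describe the choice and carry no test. Changes with time inside one organ were tested.

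The material was wild type Columbia-0 throughout, with no mutation or transgene in any group. Aerial explants and root explants were cut from 10-day-old seedlings and sampled after 0, 12, 24, 48 and 96 h on the medium, with 3 biological replicates for each organ and time, which gave 30 one-colour ATH1 arrays. The 0 h explants of the same organ served as the controls of every later time, so the later comparisons share those 3 arrays. The labels do not say which aerial organs were cut or how many seedlings were pooled, and they name no culture without the medium, so time after cutting and exposure to the medium cannot be told apart.

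Callus is a mass of dividing cells that plant tissue forms under auxin and cytokinin, and in Arabidopsis it is known to start from pericycle-like cells around the vascular tissue along a route that resembles the start of a lateral root, also when the explant is a leaf or cotyledon. Green aerial tissue is dominated by chloroplasts, whose thylakoids capture light and make ATP and NADPH, and whose stroma fixes carbon in the Calvin cycle. Root plastids normally stay non-green. Photorespiration, the salvage of the side product that Rubisco makes with oxygen, passes through chloroplasts, peroxisomes and mitochondria and is active wherever carbon is fixed in light.

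Array medians lay between 139.1 and 182.7. Across probe sets, which are no independent replicates, arrays of one group correlated with r of 0.932 to 0.977. The number of arrays, 3 in a group, limits the precision of every value. The organ labels were checked on markers. The summed signal of 7 photosystem and antenna genes was 115120 to 162120 in aerial explants at 0 h, against 427 to 903 in root explants, and 13847 to 20358 in aerial explants at 96 h, against 469 to 576 in root explants. Of 7 measured root markers, none had an aerial mean above the root mean at all 5 times. Their summed signal was 14080 to 21748 in aerial explants at 0 h, against 18078 to 21800 in root explants, because PYK10, a beta-glucosidase gene used as a root marker, was bright in both organs (means of 18260 and 12900). The aerial minus root log2 difference at 0 h was 0.48 for PYK10 and only -0.20 for EXPA18. It was -5.63 for AT3G01190, -4.80 for AGL42, -4.22 for AGL21, -3.59 for AT5G17820 and -1.44 for EXPA7. At 96 h it was above 0 for 3 of the 7, AT5G17820 (0.75), EXPA18 (0.51) and PYK10 (0.10).

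The members were 120 different genes, each read by 1 probe set, and no probe set ID ended in _s_at or _x_at, the endings that mark possible hybridisation with related transcripts. All 120 passed the filter on low values, and they did so through the aerial arrays. The annotation gives 22 of them a symbol, and the other 98 are known here by a locus code, for 5 of which the reference gene table adds a descriptive name. None was encoded in the plastid or mitochondrion. By locus code, 31, 18, 17, 19 and 35 members lay on chromosomes 1 to 5 in that order, against 25.6%, 16.3%, 20.4%, 14.6% and 22.3% of the eligible probe sets. No members were directly adjacent on a chromosome, and only 2 pairs lay within 10 genes of each other.

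Scores ran from 2.62 to 6.54 with a median of 3.54 on the log2 scale, which corresponds to an excess of 6.16 to 92.9-fold at the time when the organs were closest, with a median of 11.7-fold. A score of 4 or more was held by 40 members. The median difference between aerial and root explants was 5.34, 5.06, 5.36, 4.89 and 3.79 at 0, 12, 24, 48 and 96 h, while the medians over all tested probe sets lay between -0.23 and -0.05. The organs came closest at 96 h for 78 members, at 0 h for 25, at 12 h for 11 and at 24 and 48 h for 3 each. The gap thus narrowed for most members over the culture, although the choice required it to stay wide.

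**Figure D1:**
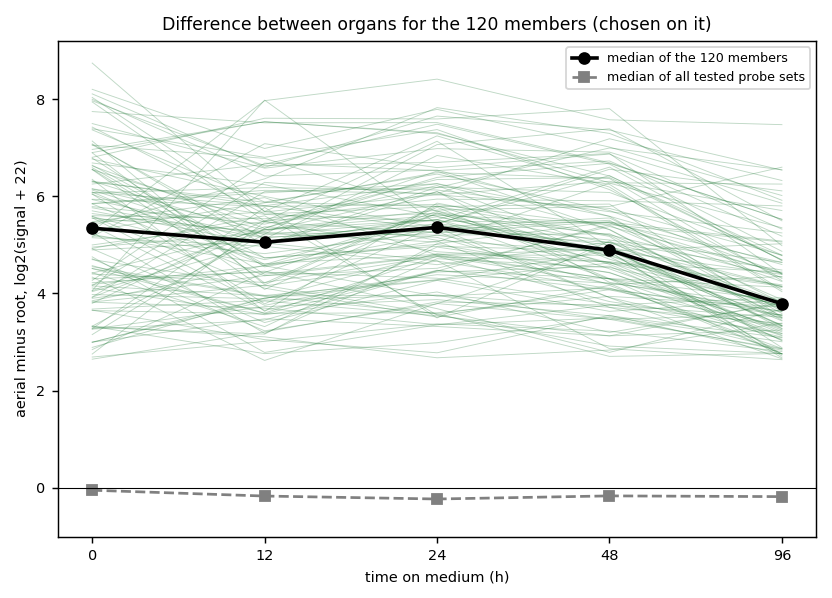
Aerial minus root difference of group means of log2(signal + 22) at each time on the medium (h) for each of the 120 members (thin lines), with their median (black) and the median of all tested probe sets (grey). The members were chosen on this difference; their median was 5.34 at 0 h and 3.79 at 96 h.

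On the root side most of these genes were dim at all times. A root group mean below 87.4, the level of the filter on low values, was found at all 5 times for 86 members, and 34 members exceeded it at 1 time or more. The members' median root signal was 39.1, 31.2, 27.3, 24.3 and 25.7 at 0, 12, 24, 48 and 96 h. Their median aerial signal was 2356, 1731, 1922, 1560 and 772 at the same times. The size of a fold change against so dim a group depends on the added 22, and the differences of the 86 dim members are on that scale only. In whole explants, fewer cells of a type and less RNA per cell cannot be told apart.

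All 3 aerial values lay above all 3 root values at every time for 119 of the 120 members, against 10.4% of all tested probe sets, a count fixed largely by the choice. The exception was AT4G11190, the last of the 120. At 12 h it had signals of 105, 764 and 1181 in aerial explants, against 4.1, 166 and 83.1 in root explants, so 1 aerial array fell within the root range. The choice was also repeated with each replicate number left out in turn, as a description and not a test. When the 120 were chosen from 2 replicate numbers, each of the 3 resulting sets shared 111 genes with the 120 described. In the replicate left out, all 120 of each set had aerial signal above root signal by at least 2-fold at all 5 times, against 3.69%, 3.65% and 3.65% of eligible probe sets in replicates 1, 2 and 3. The large differences that the choice required made this outcome likely. The median score was 3.51 in the replicates used in each case, and 3.42, 3.50 and 3.44 in replicates 1, 2 and 3 when left out.

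A strong aerial excess at 0 h was required by the rule but was not enough for membership. At 0 h, 620 eligible probe sets had a difference of at least the lowest score, and 500 of them fell short of it at a later time. The median difference of those 500 at 96 h was 0.90, and 77 of them were below 0 there. The number of eligible probe sets past the same difference was 420, 439, 367 and 265 at 12, 24, 48 and 96 h. In the opposite direction, only 10 eligible probe sets had root above aerial explants by that difference at all 5 times. Another 196 probe sets reached the lowest score and were not eligible: 172 have no gene in the annotation, 5 have several and 19 have a symbol the rule leaves out.

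Among the members with a known role, the chloroplast genes form the largest group. Carbon fixation was represented by RCA, the activase of Rubisco, by PRK, which regenerates its substrate, and by SBPASE, the Calvin cycle phosphatase. RCA had signals of 3499.7, 5298 and 3578 in aerial explants at 96 h, against 37758, 29221 and 28469.5 at 0 h, a log2 change of -2.96 ± 0.24 (limma adjusted p = 3.79e-11). The aerial groups did not overlap, and RCA fell. In root explants RCA had 122, 263 and 147 at 96 h, against 189, 205 and 124 at 0 h, with a change of -0.00 ± 0.24 (limma adjusted p = 0.994). The root values overlapped, and even the reduced aerial signal at 96 h stayed above all of them. Log2 changes are given with the standard error from limma, with 3 arrays in each group, and each p was adjusted over the 16765 tested probe sets.

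PRK had signals of 689.8, 1036 and 735 in aerial explants at 96 h, against 20244, 17771 and 13716 at 0 h, a change of -4.36 ± 0.41 (limma adjusted p = 7.63e-10). SBPASE had 471, 550 and 574 at 96 h, against 19096, 12157 and 9809 at 0 h, a change of -4.58 ± 0.40 (limma adjusted p = 1.58e-10). Both fell without overlap, and their aerial means at 0, 12, 24, 48 and 96 h, 17244, 4366, 6165, 3209.8 and 820.4 for PRK and 13687, 2733, 4319, 1905 and 532 for SBPASE, were lower at 12 h in the test (limma adjusted p = 0.000525 and 7.12e-05). The means at 24 h were above those at 12 h, but the differences of 0.49 ± 0.41 (limma adjusted p = 0.699) and 0.67 ± 0.40 (limma adjusted p = 0.52) were not called. Root means stayed at or below 47 for PRK and 47.7 for SBPASE. HPR, the peroxisomal hydroxypyruvate reductase of photorespiration, had 512, 848 and 448 in aerial explants at 96 h, against 21044, 15404 and 15933 at 0 h. Its change of -4.85 ± 0.37 (limma adjusted p = 1.5e-11) was among the 6 largest falls of the members, and the groups lay far apart. Its aerial minus root difference was 3.63 at 96 h, against 8.00 at 0 h.

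The thylakoid was represented by ATPC1, the gamma subunit of the chloroplast ATP synthase, by NdhS and PIFI, which belong to or act with the chloroplast NADH dehydrogenase-like complex, by TROL, which tethers ferredoxin-NADP reductase to the membrane, and by AT1G52220, the membrane-curving protein CURT1C. ATPC1 had the highest score of these, 5.52. Its aerial signals were 3007, 2924 and 2457 at 96 h, against 25163, 20519 and 17732 at 0 h, a fall of -2.90 ± 0.37 (limma adjusted p = 1.63e-07) without overlap. In root explants it had 19.3, 29.1 and 85.5 at 96 h, against 60.5, 124 and 55.7 at 0 h, overlapping values around and below the filter level.

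TROL changed by -3.33 ± 0.34 (limma adjusted p = 3.07e-09) in aerial explants, with signals of 421, 672 and 514 at 96 h, against 6521, 5419 and 4689 at 0 h. AT1G52220 changed by -3.15 ± 0.31 (limma adjusted p = 1.95e-09), with 252, 216 and 319 at 96 h, against 3316, 2937 and 1570 at 0 h. NdhS and PIFI changed less, by -1.89 ± 0.38 (limma adjusted p = 0.000148) and -1.65 ± 0.34 (limma adjusted p = 0.000211). In all 4 genes the 3 aerial values at 96 h lay below the 3 at 0 h. AT1G52220 also changed in root explants, by -1.37 ± 0.31 (limma adjusted p = 0.00048), from values that were themselves below the filter level.

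Pigment synthesis was represented by PORB, the light-dependent protochlorophyllide reductase, by AT1G74470, named geranylgeranyl reductase in the reference table, which makes the phytol side chain, and by LIL3:2, a light-harvesting-like protein that anchors that enzyme. PORB had 1083, 1130.3 and 1270.3 in aerial explants at 96 h, against 2926, 9717 and 9781 at 0 h, with replicate 1 low at 0 h. The groups still did not overlap, and the change was -2.47 ± 0.33 (limma adjusted p = 4.59e-07). Its aerial means of 7475, 7784, 7310.3, 3911 and 1161 at 0, 12, 24, 48 and 96 h show no call before 96 h.

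AT1G74470 had 5027, 4289 and 3694 in aerial explants at 96 h, against 22879.9, 20267 and 23770 at 0 h, a change of -2.37 ± 0.22 (limma adjusted p = 5.62e-10). In root explants it had 188, 162 and 246 at 96 h, against 135, 137 and 72.5 at 0 h, a change of 0.71 ± 0.22 (limma adjusted p = 0.00666). It was the only member called lower in aerial and higher in root explants at 96 h, a count bounded by the choice. In both organs the values at 96 h and 0 h did not overlap. The root call was lost when the arrays were centred on their medians (adjusted p = 0.0599), and without replicate 3 of root explants at 0 h (0.0831) or at 96 h (0.0529). LIL3:2 had aerial signals of 2122, 1981 and 2031 at 96 h, against 8726, 8485 and 5468 at 0 h, a change of -1.84 ± 0.26 (limma adjusted p = 1.37e-06). Its root signals were 193, 175 and 142 at 96 h, against 101, 104 and 135 at 0 h, where the change of 0.50 ± 0.26 (limma adjusted p = 0.104) was not called.

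Other chloroplast members were AT5G58330, the NADP-dependent malate dehydrogenase that exports reducing power, AOR, an alkenal and alkenone reductase, and THIC, which makes the pyrimidine part of thiamine. AT5G58330 had 572, 601 and 400.1 in aerial explants at 96 h, against 6349, 4470.4 and 3655 at 0 h, a change of -3.13 ± 0.39 (limma adjusted p = 1.34e-07). AOR had 305, 527 and 309.7 at 96 h, against 6072, 4250.2 and 3212 at 0 h, a change of -3.49 ± 0.31 (limma adjusted p = 3.26e-10). THIC had 406, 279.7 and 328 at 96 h, against 1421, 2475 and 3125 at 0 h, a change of -2.66 ± 0.36 (limma adjusted p = 6.53e-07). None of the 3 overlapped between the times. Counted together, all 15 members with a chloroplast or photorespiratory role were called lower in aerial explants at 96 h, with changes between -4.85 and -1.65, against 18.6% of all tested probe sets called lower. These 15 were grouped after their values were seen.

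**Figure D2:**
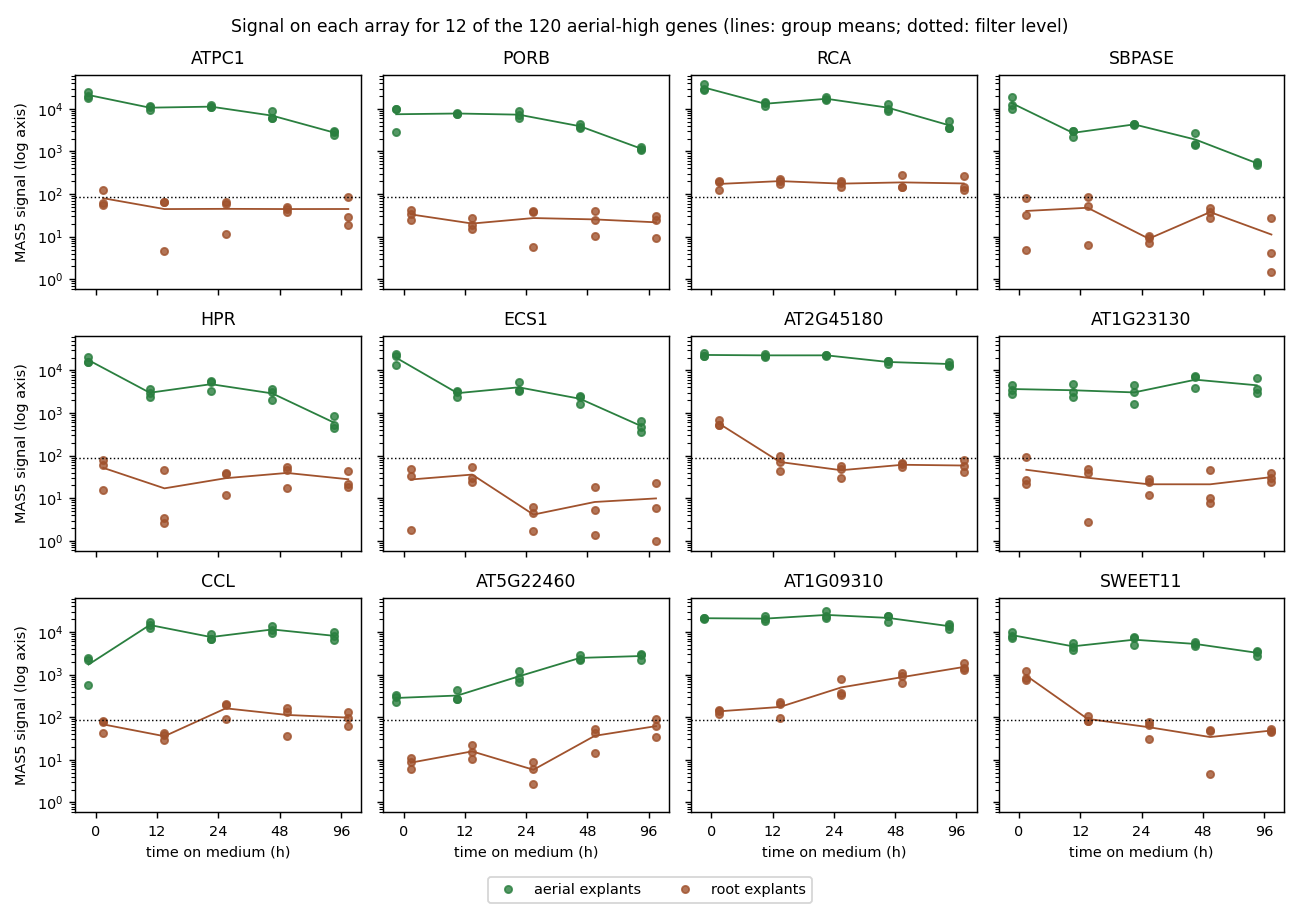
MAS5 signal (log axis) on each array for 12 members against time on the medium (h), in aerial explants (green) and root explants (brown). Lines join group means, and the dotted line is the filter level of 87.4. ECS1 and HPR fell in aerial explants, CCL and AT5G22460 rose there, AT1G09310 rose in root explants, and SWEET11 and AT2G45180 fell in root explants.

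Across all members the aerial signal mostly fell on the medium. At 12 h, 54 members were called lower and 13 higher than at 0 h, against 13.8% and 13.5% of all tested probe sets. At 24 h, 33 were lower and 14 higher, against 12.4% and 11.4%. At 48 h, 54 were lower and 13 higher, against 14.0% and 17.4%. At 96 h, 83 were lower and 11 higher, against 18.6% and 26.0%. With the added 22, the share of members called lower thus exceeded the background at each time. At 96 h the share called higher was below it. Without replicate 1 of aerial explants at 0 h, 29 members instead of 47 were called at 24 h in either direction. With log2(signal + 1) the calls at 12, 24 and 48 h numbered 28, 13 and 34, against 67, 47 and 67 with the added 22. They were 19, 7 and 27 lower and 9, 6 and 7 higher, and at 96 h 68 lower and 5 higher. The background on that scale was not counted, so the excess of falls is shown with the added 22 only.

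**Figure D3:**
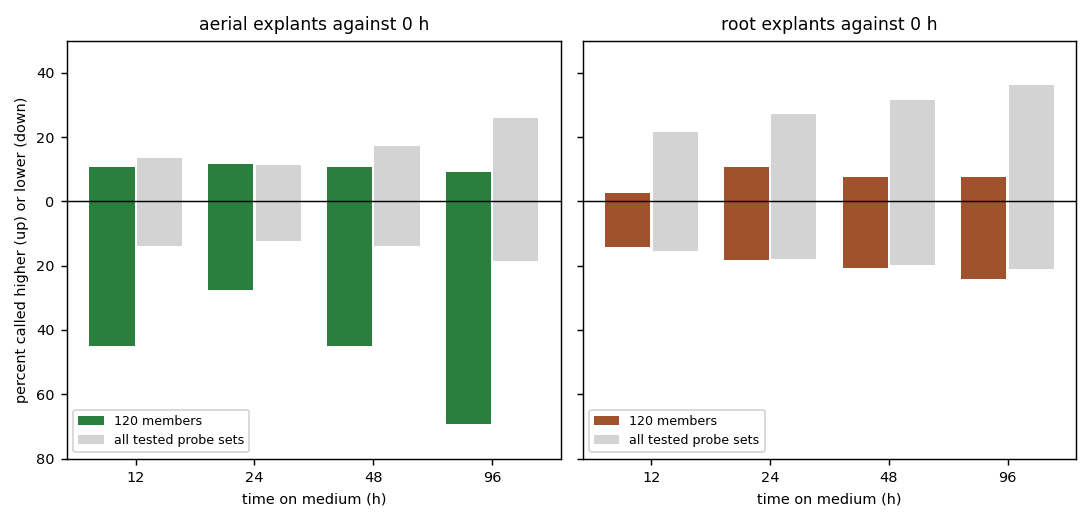
Percent of the 120 members (coloured bars) and of all tested probe sets (grey bars) called higher (upward) or lower (downward) than at 0 h in the same organ, by time on the medium (h), in aerial explants (left panel) and root explants (right panel). In aerial explants 83 members were called lower at 96 h, and in root explants 29.

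The members' median aerial change was -0.72, -0.39, -0.79 and -1.85 at 12, 24, 48 and 96 h, while the median over all tested probe sets at 96 h was 0.13. By fold size, 78 members were called at least 2-fold lower at 96 h and 10 at least 2-fold higher, against 13.3% and 14.1% of all tested probe sets. Called falls of at least 4-fold were found for 54 members and of at least 8-fold for 26, against 5.28% and 1.86% of all tested probe sets. The median member kept 29.2% of its 0 h aerial signal at 96 h. A member could not fall to the root level by construction, so the depth of the falls is bounded by the choice.

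The time courses took several forms. In aerial explants 29 members were called lower at all 4 later times, 35 at some of them, and 20 at 96 h only, against 6.96%, 12.9% and 4.24% of all tested probe sets. Another 8 were called higher at all 4 times, 10 at some, and 18 were called at no time, against 6.78%, 23.6% and 44.8%. Of the 54 members lower at 12 h, 53 were also lower at 96 h, against 71.0% of all tested probe sets that were lower at 12 h. The smaller number of calls at 24 h than at 12 h was examined in a comparison of those times that was added after seeing the data. Aerial explants at 24 h were called higher than at 12 h for 4 members and lower for 1, against 0.889% and 0.406% of all tested probe sets. The 4 were AT5G38980, AT5G13770, AT5G22460 and AT1G14345, and the 1 was AT3G62550.

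Of the 4 members higher at 24 h than at 12 h, AT5G38980, AT5G13770 and AT1G14345 were also called lower at 12 h than at 0 h. AT1G14345 had the lowest change of any member at 12 h, -3.29 ± 0.45 (limma adjusted p = 2.42e-06), with aerial signals of 2277, 2786 and 2251 at 24 h, against 535, 736 and 728 at 12 h, a difference of 1.84 ± 0.45 (limma adjusted p = 0.0352). AT5G38980, the gene with the highest score, had a difference of 1.47 ± 0.26 (limma adjusted p = 0.00223) between these times. At 0 h its aerial signals were 11494, 14839 and 10562, at 12 h they were 2925, 3055 and 2456, and at 24 h they were 7093, 8271 and 8006. At 48 h they were 6070.2, 5414 and 5626, and at 96 h 2735, 2599.6 and 2371. The 12 h values lay below those of 0, 24 and 48 h and overlapped those of 96 h. The change was -2.11 ± 0.26 (limma adjusted p = 3.57e-07) at 12 h and -2.24 ± 0.26 (limma adjusted p = 3.11e-08) at 96 h. In root explants the 15 values lay between 1.5 and 36.5. The tables used here give this gene no name.

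The largest aerial fall was that of ECS1, a gene tied to the Arabidopsis response to Xanthomonas campestris. ECS1 had 365, 481 and 634 in aerial explants at 96 h, against 21562, 24373 and 13537 at 0 h, a change of -5.26 ± 0.33 (limma adjusted p = 1.99e-13). Its aerial means were 19824, 2929.6, 4012, 2162 and 493 at 0, 12, 24, 48 and 96 h, so most of the drop was present at 12 h. Root signals were 6, 1 and 22.7 at 96 h, against 1.8, 48.1 and 32.7 at 0 h, all below the filter level. Its aerial minus root difference was 4.04 at 96 h, against 8.74 at 0 h, still above the lowest score of 2.62.

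Besides HPR, SBPASE and PRK, large falls belonged to locus codes without a name in the tables used. AT2G42220 had 266, 209 and 244 in aerial explants at 96 h, against 9154, 7776 and 5221 at 0 h, a change of -4.79 ± 0.37 (limma adjusted p = 1.23e-11). AT4G27700 had 168, 208 and 142 at 96 h, against 4449.6, 4106 and 2396 at 0 h, a change of -4.20 ± 0.27 (limma adjusted p = 4.17e-13). Neither overlapped between the times, and both were called lower at all 4 later times.

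Among named members outside the chloroplast, 7 of 12 were called lower in aerial explants at 96 h and 1 higher, against 18.6% and 26.0% of all tested probe sets. ALDH11A3, the cytosolic non-phosphorylating glyceraldehyde-3-phosphate dehydrogenase, changed by -2.19 ± 0.27 (limma adjusted p = 9.39e-08), with 1233, 1769 and 1453 at 96 h, against 5464, 6501 and 8849 at 0 h. XTH32, a xyloglucan endotransglucosylase/hydrolase of the cell wall, changed by -1.86 ± 0.34 (limma adjusted p = 4.31e-05). AT4G13840, named ECERIFERUM 26, which takes part in the elongation of cuticular wax precursors, changed by -1.06 ± 0.34 (limma adjusted p = 0.0117). CYP71B5, a cytochrome P450, and PRA1.F1, of the family of prenylated Rab acceptors, changed by -0.92 ± 0.33 (limma adjusted p = 0.0249) and -0.75 ± 0.28 (limma adjusted p = 0.0272). The aerial values of XTH32, AT4G13840, CYP71B5 and PRA1.F1 at 96 h lay below all 3 at 0 h. Some of these calls rest on single arrays. That of AT4G13840 was lost without replicate 3 at 0 h (limma adjusted p = 0.0814). Those of CYP71B5 and PRA1.F1 were lost without replicate 2 or 3 at 0 h and without 2 of the 3 arrays at 96 h, each in turn, with adjusted p up to 0.103 and 0.112.

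Other named members were not called changed in aerial explants at 96 h. AT2G26690, the transporter NPF6.2 of the nitrate and peptide transporter family, had 2233, 2584 and 2544 in aerial explants at 96 h, against 3258, 2388 and 3442 at 0 h. GSTU16, a tau class glutathione transferase, had 941, 753 and 633, against 752, 739 and 371. ATPMEPCRD, a pectin methylesterase, had 907, 1508 and 1463, against 715, 2373 and 2837. Values of the times overlapped in all of these, and the changes were -0.29 ± 0.26, 0.36 ± 0.30 and -0.42 ± 0.41 (adjusted p = 0.386, 0.36 and 0.432). BRH1, a brassinosteroid-responsive RING-finger gene, was higher at 12 h, with 4318, 6337 and 4109.9 against 2618, 2688 and 1698 at 0 h and a change of 1.07 ± 0.30 (limma adjusted p = 0.00765), and was not called at 96 h.

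The same was true of some locus codes without a name. AT1G23130 had 6698, 2985 and 3758 in aerial explants at 96 h, against 4615, 2809.8 and 3554 at 0 h, a change of 0.23 ± 0.41 (limma adjusted p = 0.68), with overlapping groups. AT5G18600 had 3929, 1776 and 1649 at 96 h, against 3142, 1238 and 769 at 0 h, a change of 0.64 ± 0.48 (limma adjusted p = 0.295). In AT5G18600, replicate 1 was the highest of the 3 aerial arrays at every time. The scores of these genes, 5.85 and 5.54, ranked among the first 20 of the 120. AT2G10940, with the score next to the highest (6.25), had 6549.8, 5394 and 4589 at 96 h, against 13037, 15497 and 14412 at 0 h, a change of -1.39 ± 0.33 (limma adjusted p = 0.000888) without overlap.

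The remaining genes of the first 20 by score were AT4G16980, AT2G26500, AT5G11420, AT2G45180, AT4G18970, AT5G01740, AT5G57785, AT2G05540, AT1G29660, AT1G04800, AT3G05730 and AT1G62510, all without a name in the tables used. The aerial change at 96 h was called for AT4G16980 (-2.81 ± 0.43), AT2G26500 (-2.46 ± 0.29), AT5G11420 (-2.11 ± 0.35), AT2G45180 (-0.71 ± 0.19), AT4G18970 (-1.21 ± 0.35), AT1G29660 (-3.0 ± 0.29), AT3G05730 (-1.85 ± 0.43) and AT1G62510 (-0.88 ± 0.34). It was not called for AT5G01740 (-0.12 ± 0.38), AT5G57785 (-0.21 ± 0.38), AT2G05540 (0.82 ± 0.42) and AT1G04800 (-0.86 ± 0.38). The smallest called change among them, that of AT2G45180, came from tight replicates, and it was lost under quantile normalization (adjusted p = 0.118). The call of AT1G62510 was lost without replicate 1 or 3 at 0 h or at 96 h, each in turn, with adjusted p up to 0.180.

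Of the 11 members called higher in aerial explants at 96 h, AT5G22460 changed most. It had 2901, 3024 and 2256 in aerial explants at 96 h, against 229.7, 292 and 325 at 0 h, a change of 3.18 ± 0.27 (limma adjusted p = 1.45e-10). Its aerial means were 282, 322, 907, 2463 and 2727 at 0, 12, 24, 48 and 96 h, and the rise was called from 24 h on. In root explants it had 88.5, 35 and 61.5 at 96 h, against 10.8, 8.8 and 6.1 at 0 h, a change of 1.40 ± 0.27 (limma adjusted p = 8.07e-05). The groups did not overlap in either organ, though the root values at 96 h were close to or below the filter level.

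CCL, whose transcript is known to cycle with the circadian clock, had the largest called rise at 12 h among the members. It had 16847, 14573 and 12326 in aerial explants at 12 h, against 567, 2141 and 2448 at 0 h, a change of 3.31 ± 0.40 (limma adjusted p = 3.01e-07). At 96 h it had 9994, 7968 and 6472, a change of 2.46 ± 0.40 (limma adjusted p = 8.85e-06). No aerial value at any later time overlapped those of 0 h, although replicate 1 at 0 h was well below the other two. No harvest time of day appears in the labels, and its part in these values was not tested. In root explants CCL had 97.5, 63.4 and 132 at 96 h, against 78.3, 82.8 and 42.2 at 0 h, overlapping values.

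CCL was 1 of 8 members called higher in aerial explants at all 4 later times. The others were AT5G50335, AT4G32340, AT1G73120, AT3G62550, AT1G80130, AT5G57760 and AT4G35720, none with a name in the tables used. AT5G50335 had 2968, 2073 and 1486 at 96 h, against 439, 996 and 415 at 0 h, a change of 1.84 ± 0.35 (limma adjusted p = 8.6e-05). AT4G32340 had 1968, 1183 and 1550, against 359.6, 981 and 659, a change of 1.28 ± 0.34 (limma adjusted p = 0.00298). The mean was higher at 12 h than at 96 h in AT5G57760, with aerial means of 379, 2397, 2374, 1676 and 943 at 0, 12, 24, 48 and 96 h. Its call at 96 h, with a change of 1.22 ± 0.49 (limma adjusted p = 0.0446), was lost when any of the 3 arrays at 0 h, or replicate 1 or 3 at 96 h, was left out, with adjusted p up to 0.162. AT3G62550 had a lower mean at 24 h than at 12 and 48 h, with aerial means of 315, 2328, 739, 1875 and 715 at the same times, and its call at 96 h was lost without replicate 1 at 0 h (adjusted p = 0.186) or replicate 1 or 3 at 96 h (0.224 and 0.0538).

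AT1G73120 had 4042, 2647 and 4072 in aerial explants at 96 h, against 212, 1298 and 3424 at 0 h, a change of 1.79 ± 0.59 (limma adjusted p = 0.0138). AT1G80130 had 1794, 1099.6 and 1075, against 1014, 369 and 467, a change of 1.17 ± 0.40 (limma adjusted p = 0.0173). AT3G23450 had 447, 521 and 474, against 191, 217 and 237, a change of 1.08 ± 0.36 (limma adjusted p = 0.0161). AT4G22490, the last of the 11, had 7228, 6375 and 7409, against 2014, 4206 and 5839.8, a change of 0.92 ± 0.34 (limma adjusted p = 0.0265). Of the 11, AT1G73120 and AT3G62550 had aerial values that overlapped between 96 h and 0 h, and the other 9 did not. The share without overlap over all tested probe sets was not counted. As given above, 26.0% of all tested probe sets were called higher in this comparison.

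**Figure D4:**
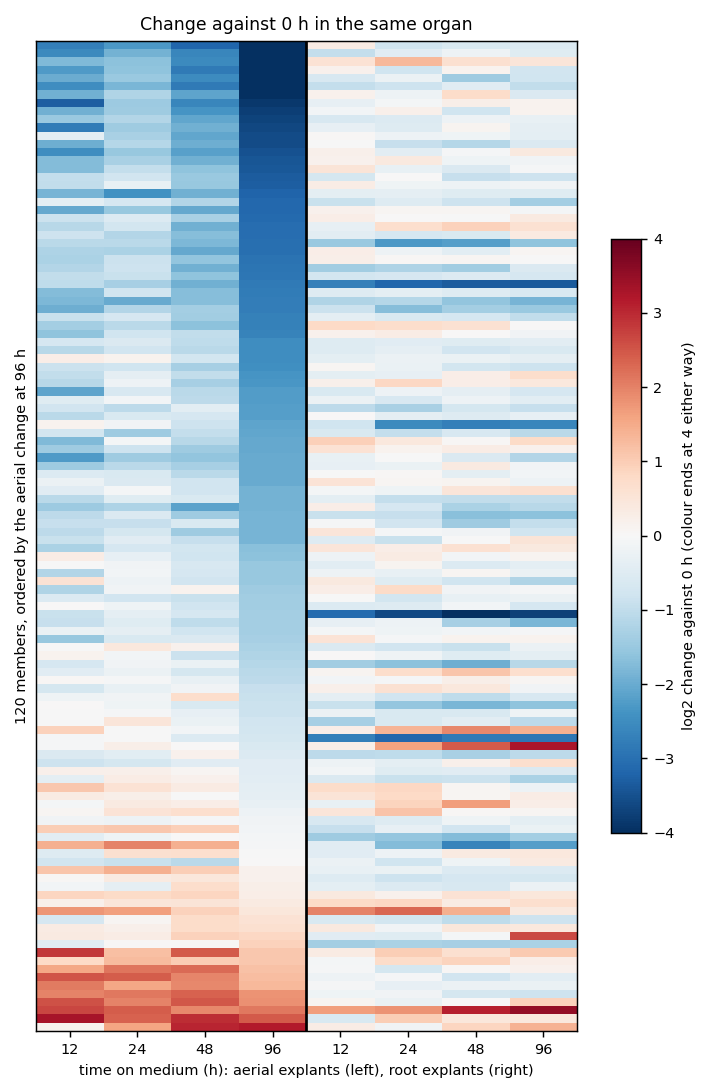
Log2 change against 0 h in the same organ for each of the 120 members (rows, ordered by the aerial change at 96 h) at 12, 24, 48 and 96 h in aerial explants (left) and root explants (right); blue is lower, red is higher, and colours end at 4 either way. Most rows turn blue in aerial explants by 96 h, while the root columns are mostly pale with a few strong rows.

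In root explants the members moved less, from levels that were mostly dim. At 12 h, 17 members were called lower and 3 higher than at 0 h, against 15.5% and 21.7% of all tested probe sets. At 24 h, 22 were lower and 13 higher, against 17.8% and 27.1%. At 48 h, 25 were lower and 9 higher, against 19.7% and 31.6%. At 96 h, 29 were lower and 9 higher, against 21.0% and 36.2%. Over all members together, the shares called lower were near the background and those called higher were below it. The choice left out genes whose root signal came close to the aerial one, so the low share called higher is bounded by the choice. Falls were bounded by the dim root signals of most members. Of the 34 members above the filter level in a root mean, 16 were called lower at 96 h and 5 higher. Among these 34 the share called lower was thus above the 21.0% of all tested probe sets, which were not split in this way. The highest root mean lay at 0 h for 20 of the 34. Centring the arrays on their medians made the split at 96 h 40 lower and 5 higher. The members' median root change at 96 h was -0.29, against 0.26 over all tested probe sets.

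In root explants 11 members were called lower at all 4 later times, 22 at some and 6 at 96 h only, against 9.81%, 13.4% and 2.59% of all tested probe sets. AT4G35720 was called higher at all 4 times, 20 members at some, and 60 were called at no time, against 14.2%, 28.8% and 28.6%. The root calls of the 86 members that stayed below the filter level rest on signals near background.

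The 6 largest called root falls at 96 h without overlap between the times are given here. With the added 22, a large fall requires a bright start. SWEET11, a sucrose exporter of the phloem parenchyma of leaves, had 46, 53 and 46.7 in root explants at 96 h, against 1218, 839.5 and 764 at 0 h. The change was -3.74 ± 0.28 (limma adjusted p = 6.21e-12), and the groups lay far apart. The drop was there at 12 h, with 82.5, 108 and 83.3. In aerial explants SWEET11 had 3576, 2709 and 3471 at 96 h, against 7139, 8107 and 10171 at 0 h, a change of -1.37 ± 0.28 (limma adjusted p = 0.000199). Its aerial minus root difference was 3.16, 5.34, 6.39, 6.68 and 5.53 at 0, 12, 24, 48 and 96 h.

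AT2G45180 had 42.4, 55.6 and 77.8 in root explants at 96 h, against 526, 527 and 669.8 at 0 h, a change of -2.90 ± 0.19 (limma adjusted p = 5.25e-13). Its root signal was 43.1, 70.2 and 99.3 by 12 h. In aerial explants it had 12888, 16058 and 13469 at 96 h, against 21506, 26167 and 21591 at 0 h. The root signal thus dropped early and without overlap, while the aerial signal kept 61.2% of its 0 h level, and the gap between the organs was 7.47 at 96 h, against 5.28 at 0 h.

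AT1G09750 had 24.4, 19.1 and 6.4 in root explants at 96 h, against 221, 335 and 671 at 0 h, a change of -3.37 ± 0.38 (limma adjusted p = 1.51e-08), and AT5G11420 had 8.4, 50.3 and 14.4, against 169, 232 and 365, a change of -2.62 ± 0.35 (limma adjusted p = 2.76e-07). AT5G22580 had 39.8, 22.7 and 4.9, against 182, 146 and 192, a change of -2.21 ± 0.42 (limma adjusted p = 6.54e-05), and AT1G69160 had 5.4, 2.1 and 13.9, against 54.2, 96.2 and 107, a change of -1.87 ± 0.38 (limma adjusted p = 0.000133). These 4 had no overlap between the times in root explants. XTH32 and ATPMEPCRD, the cell wall genes, were also called lower there, with changes of -1.64 ± 0.34 (limma adjusted p = 0.000153) and -1.28 ± 0.41 (limma adjusted p = 0.00897). In aerial explants AT5G22580 had its highest mean at 24 h, with means of 2302, 5319, 7778, 5234 and 1875 at 0, 12, 24, 48 and 96 h.

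Called rises in root explants were few, a count bounded by the choice. AT4G35720 had 326, 261 and 378 in root explants at 96 h, against 17.2, 3.7 and 4.9 at 0 h, a change of 3.50 ± 0.41 (limma adjusted p = 3.7e-08). In aerial explants it had 2649, 1754 and 1985 at 96 h, against 196, 868 and 599 at 0 h, a change of 2.1 ± 0.41 (limma adjusted p = 0.000117). It rose in both organs without overlap. AT1G09310 had 1419, 1842 and 1264 in root explants at 96 h, against 148, 119.7 and 143 at 0 h, a change of 3.25 ± 0.26 (limma adjusted p = 2.94e-11), and its root means were 137, 174, 499, 873 and 1508 at 0, 12, 24, 48 and 96 h. In aerial explants it had 14186, 15052 and 11894 at 96 h, against 19886, 21752 and 21458 at 0 h, a change of -0.62 ± 0.26 (limma adjusted p = 0.055) that missed the threshold although the values did not overlap.

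AT2G05540 had 421, 111 and 412 in root explants at 96 h, against 8.9, 24.6 and 51.3 at 0 h, a change of 2.64 ± 0.42 (limma adjusted p = 4.9e-06), and all its values at 12, 24 and 48 h were at or below 42.4. This gene was thus dim in roots up to 48 h and above the filter level on all 3 arrays at 96 h. AT5G61660 had 109, 96.6 and 116, against 90.3, 3.7 and 15.8, a change of 1.43 ± 0.35 (limma adjusted p = 0.00089). AT3G62550 had 36.4, 40.9 and 67.5, against 20.8, 11 and 3.8, a change of 1.06 ± 0.40 (limma adjusted p = 0.0248) within the dim range, which was lost without replicate 2 or 3 at 0 h or replicate 3 at 96 h. NPF6.2 had its highest root mean at 48 h, with means of 139.8, 113, 298, 502 and 177 at 0, 12, 24, 48 and 96 h, and its change of 1.69 ± 0.26 (limma adjusted p = 3.26e-06) at 48 h was called.

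Setting the organs side by side at 96 h, 58 members were called lower in aerial explants and not called in root explants, 24 were lower in both, and 18 were called in neither, against 9.37%, 3.67% and 24.6% of all tested probe sets. Another 6 were higher in aerial explants and not called in root explants and 4 were higher in both, against 8.91% and 11.4%. With no aerial call, 4 were higher and 4 lower in root explants, against 19.3% and 11.6%. AT1G74470 was the 1 member lower in aerial and higher in root explants, against 5.53%, a count bounded by the choice. AT4G22490 was the only member called higher in aerial and lower in root explants, against 5.71%, with changes of 0.92 ± 0.34 and -1.25 ± 0.34. The difference between the changes of the organs follows from the contrasts used in the choice and was not tested.

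**Figure D5:**
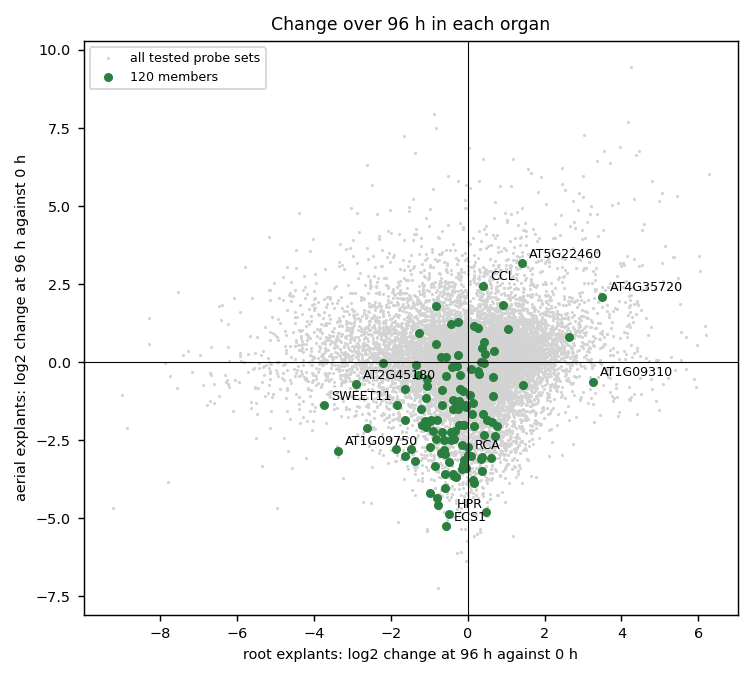
Log2 change at 96 h against 0 h in aerial explants (vertical axis) and in root explants (horizontal axis) for the 120 members (green) and all tested probe sets (grey), with 10 members named. Most members lie below 0 on the aerial axis, where their median was -1.85, and near 0 on the root axis, where it was -0.29.

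Lists of leaf genes set these members among others of the same pathways. The lists were chosen with results of these data known, and few of their genes have a probe set with 1 gene in the annotation. Of 23 Calvin cycle genes 4 were tested, 3 were members and all 4 were called lower in aerial explants at 96 h, with a median difference between the organs of 4.27 at 96 h, against 7.65 at 0 h. The one that was no member, AT1G56190, had root signal too (mean of 989.8 at 96 h, against 1144 at 0 h). Of 18 photorespiration genes 5 were tested, 1 was a member and all 5 were lower. The median difference was 1.77 at 96 h, against 6.82 at 0 h. In root explants at 96 h, 2 of the 5 (LrgB and AT1G32470, no members) were called higher and 1 lower.

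Of 30 thylakoid genes 9 were tested, 3 were members and 8 were lower. The median difference was 2.21 at 96 h, against 5.48 at 0 h. In root explants at 96 h, 2 of the 9 were called higher and 3 lower. AT4G01150, no member, was lower in aerial and higher in root explants. Of 31 genes of chlorophyll and carotenoid synthesis 8 were tested, 2 were members and all 8 were lower. Their median difference was 1.59 at 96 h, against 5.38 at 0 h. CHLI2, no member, and AT1G74470 were called higher in root explants at 96 h, and no gene of this list was called lower there. The 7 tested photosystem and antenna genes, barred from membership by their symbols, were all called lower, and their median difference was 4.54 at 96 h, against 7.67 at 0 h. Over all tested probe sets, 18.6% were called lower in that comparison. In root explants at 96 h, 36.2% of them were called higher and 21.0% lower. No tested gene of the Calvin cycle or photosystem lists was called there.

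Lists for other parts of shoot biology had no member. The 3 tested shoot and leaf transcription factors (YAB5, YAB3 and PHV) had a median difference of 1.98 at 96 h, against 3.13 at 0 h. PHV alone had -0.83 at 96 h, against 0.08 at 0 h, and was called higher in aerial explants at 96 h. YAB5 and YAB3 were called lower there. The 4 tested genes of stomata and trichomes (TRY, SPCH, STOMAGEN and FMA) had 0.61 at 96 h, against 1.80 at 0 h. TRY, SPCH and STOMAGEN were called lower in aerial explants at 96 h, and FMA was not called. The 3 of light signalling and the clock (HYH, AFR and GI) had a median of -0.16 at 96 h, against 2.87 at 0 h. GI was higher in root explants at both times, with -1.58 at 96 h, against -5.07 at 0 h. GI was called higher in aerial explants at 96 h, while HYH and AFR were called lower. AFR was called higher in root explants at 96 h. The 2 plastid division genes FTSZ2-1 and FTSZ2-2 had -0.60 at 96 h, against 1.65 at 0 h. Each was called lower in aerial and higher in root explants at 96 h. The 2 tested genes of starch metabolism (DPE1 and APL3) had -0.08 at 96 h, against 0.05 at 0 h, with no call in either organ at 96 h. The 2 of glucosinolate synthesis (BCAT4 and AT2G31790) went the other way, with a median of 4.74 at 96 h, against -0.38 at 0 h. BCAT4 had 5.66 at 96 h, against -2.185 at 0 h, and AT2G31790 had 3.83, against 1.42. Both were called lower in root explants at 96 h, and AT2G31790 was called lower in aerial explants too. No cuticle gene of the list matched a probe set with 1 gene in the annotation. The 7 root markers had -0.21 at 96 h, against -3.59 at 0 h.

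At the threshold, the last 3 members were AT1G49470 (2.65), AT4G35720 (2.64) and AT4G11190 (2.62), and the next 3 genes, left out, were AT3G20820 (2.62), AT1G66940 (2.62) and AT2G45600 (2.62). The scores on both sides nearly meet, so the number of 120 marks no gap in the data.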

How the data were processed

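Total RNA of the explants was hybridised to ATH1 arrays. The deposited intensity values are MAS5 signals, 1 per probe set and array, on a linear scale; the name MAS5 is taken per the submitters' processing notes. Its version and any genome build were not given in the sources used. The deposited values ran from 0.1 to 57102, and every array had a mean of 500 after trimming 2% at each end, the mark of scaling to a shared target. Detection calls were not used here.

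The 120 members and all gene lists were chosen with earlier results of these data known. Genes came from the platform's 2016 annotation, with names from RefSeq's TAIR10.1 gene table, which matched 119 members. Signals were analysed as log2(signal + 22), 22 being the 20th percentile of all values, so folds of dim genes are understated. Testing was limited to probe sets for which 3 or more arrays exceeded 87.4, the 40th percentile (16765 probe sets). The 10 groups were fitted together with limma 3.58.1 in R 4.3.3 (eBayes with trend, two-sided tests, Benjamini-Hochberg over the 16765, called below 0.05). Each p-value reflects the spread between these arrays alone.

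Named genes are the 20 highest scores, the members on a list, the 6 largest called rises and falls at 96 h in each organ without overlap, and the genes at the threshold. Members with an annotated name, and those listed where a count was small, were added after their values were seen. The alternatives were log2(signal + 1) and log2(signal + 64), no filter, centring, quantile normalization, 1 organ at a time, the replicate number as a block, and leaving out each array.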

Additional observations from a re-analysis of the deposited data

Results flagged for a closer look

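In 7 members the 3 values at 96 h lay wholly on opposite sides of those at 0 h in aerial and root explants. In 6 of them the aerial values lay below and the root values above. Their log2 changes at 96 h were -2.37 in aerial and 0.71 in root explants for AT1G74470, -0.62 and 3.25 for AT1G09310, -1.84 and 0.50 for LIL3:2, -0.46 and 0.66 for AT3G47250, -2.05 and 0.76 for AT5G47610, and -3.05 and 0.61 for AT5G51110. AT4G22490 had the opposite order, with 0.92 in aerial and -1.25 in the roots. Whether the changes differed between aerial and root explants was not tested, since the members were chosen on the organ contrasts. The aerial changes of AT1G09310 and AT3G47250 (limma adjusted p = 0.055 and 0.161) and the root changes of LIL3:2, AT5G47610 and AT5G51110 (0.104, 0.174 and 0.0714) were not called. The share of all tested probe sets with such opposite values was not counted, so the 7 cannot be set against a background. Calls of aerial lower with root higher, or the reverse, were held by 1 member each. They were found for 5.53% and 5.71% of all tested probe sets, and the choice bounded the count of the first kind.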

How the results depend on the processing

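The sign was checked for 68 called changes at 96 h of 58 named members, and none reversed under any alternative run. Large called changes made a reversal unlikely. AT1G73120, AT1G80130, AT3G23450 and AT4G22490 were not part of that check. With log2(signal + 1), the members called numbered 28, 13 and 34 in aerial explants at 12, 24 and 48 h and 0 for 24 h against 12 h, in place of 67, 47, 67 and 5. With log2(signal + 64), 12 in place of 20 were called in root explants at 12 h and 11 for aerial 24 h against 12 h. The cause was not tested. Leaving out 1 array at a time, the calls ranged over 53 to 63, 29 to 48, 59 to 65 and 85 to 88 in aerial explants at 12, 24, 48 and 96 h, and over 17 to 24, 27 to 31, 31 to 37 and 31 to 38 in root explants. For aerial 24 h against 12 h they were 2 to 3. The lowest count at 24 h, 29, came without replicate 1 of aerial explants at 0 h. With the replicate number as a block, 97 members were called in aerial and 44 in root explants at 96 h, against 94 and 38 without the block. Correlations of deviations from the group means ran from -0.12 to 0.30 (median 0.085) for same-numbered aerial arrays and from -0.05 to 0.39 (0.094) for root arrays, against medians of -0.053 and -0.058 for arrays of different numbers. Of the 15 arrays of each organ, 13 aerial and 13 root ones correlated best with their own number. The labels give no meaning to the number and some pairs correlated below 0, so the higher correlations are a hint from the data and the block stayed an alternative. For the 68 called changes of named members, 808 alternative values stayed on the same side of the threshold and 76 lost the call. With another added constant, centring or quantile normalization, 101 to 116 of the 120 genes were chosen again. Signals near background limit the root changes of most members.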

Other observations

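In 19 of the 120 members the same aerial replicate number was highest at all 5 times, against 3.59% of all tested probe sets, and in 18 of them it was replicate 1. ATPC1, GSTU16 and LIL3:2 were among them. In replicates 1, 2 and 3, AT5G18600 had aerial signals of 3142, 1238 and 769 at 0 h, while at 48 h they were 4795, 1615 and 1859, and at 96 h they were 3929, 1776 and 1649. AT3G05730 had 12024, 9338 and 3519.7 at 0 h, while at 96 h it had 2946, 1317 and 2107. The labels do not say what replicate 1 shared across times.

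Other members had replicate 1 far below the others at 0 h alone. PORB had 2926, 9717 and 9781, CCL 567, 2141 and 2448 and AT5G22580 799, 2384 and 3722 in aerial explants at 0 h. At 12 h the same genes had 8179, 7736 and 7438, 16847, 14573 and 12326 and 4058, 6322 and 5576.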
